A study of Mus musculus with 8 samples.

Results

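Cell cycle and mitosis genes were examined in the embryonic mouse cortex as a set of 39 genes, from the cyclins that open the cycle to the machinery that separates the chromosomes and closes division. The members were chosen by name, and all 39 were found among the 23284 gene symbols of the count files. All 39 also passed the filter on low counts, which left 14696 genes to test. RNA-seq was performed on the dorsal cortex of C57BL/6 embryos at E15.5, with 4 libraries labelled WT and 4 labelled ErbB4 KO. ErbB4 is a receptor tyrosine kinase of the EGF receptor family that binds neuregulins. The WT embryos were ErbB4+/+. The KO embryos were ErbB4-/-. Embryos without ErbB4 are known to die of heart defects, and mice lacking it have been kept alive with an ErbB4 transgene expressed in the heart under the alpha-MHC promoter. Whether the sequenced embryos carried that transgene is not given in the sources used here. WT and KO lines were kept as separate homozygous colonies, so genotype and colony cannot be told apart. Dissection left out the ganglionic eminences and the meninges. The labels do not say whether the 4 libraries of a genotype came from separate litters, so the p-values measure only the spread between these libraries.

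In the E15.5 cortex, proliferating cells are mostly radial glia, which line the ventricle, and the intermediate progenitors they produce, while postmitotic neurons fill the layers above. A dividing cell passes from G1 into S phase when D-type and E-type cyclins activate their kinases, copies its DNA with a supply of new deoxynucleotides, and enters mitosis when Cdk1 is activated by A-type and B-type cyclins. Kinetochores then attach chromosomes to the spindle, and a checkpoint holds the cell until attachment is complete. The anaphase-promoting complex then marks cyclin B for destruction as the chromosomes separate. Transcripts of most of these genes are made periodically and are low in neurons. In bulk tissue, fewer dividing cells and less RNA per dividing cell cannot be told apart.

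The 39 genes had a log2 fold change (ErbB4 KO over WT) below 0 in every case in the edgeR fit, whereas 50.8% of all genes tested had one. Their median log2 fold change was -0.18, beside 0.00 over all genes, and single members ranged from -0.28 for Cdc20 to -0.03 for Ccnd2. No member passed the threshold, an edgeR adjusted p of 0.05, which 0.0272% of all genes (4 genes) passed, and the members lay between 0.810 and 0.966. At an unadjusted p under 0.05, 6 members were lower in ErbB4 KO (Ccnd1, Cdc20, Plk1, Aurkb, Ccne1 and Tk1) and 0 were higher, beside 2.52% of all genes in the lower direction. DESeq2 and limma-voom also called 0 members at an adjusted p of 0.05, beside 23 and 4 of all genes, and had 6 and 7 members lower at an unadjusted p under 0.05, beside 2.21% and 2.45% of all genes. No member had all its ErbB4 KO values below all its WT values, beside 1.48% of all genes. The members were not independent of each other, since their levels moved together from library to library.

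The total counts lay between 28205703 and 48871480 per library and did not separate the genotypes (exact two-sided permutation test, p = 0.257). Erbb4 itself had 8.99, 19.9, 25.3 and 19.2 CPM (counts scaled to a common library size) in WT replicates 1 to 4 and 20.9, 24.6, 20.7 and 23.5 CPM in ErbB4 KO replicates 1 to 4. Its log2 fold change was 0.28 (SE 0.23, edgeR adjusted p = 0.812). Reads per gene include exons that a disrupted allele can keep, so this count does not check the genotype labels, and the libraries are called by their labels throughout. Xist, the RNA that silences an X chromosome in females, lay between 983 and 1687 CPM in WT replicates 1 to 3 and between 2.70 and 3.82 CPM in WT replicate 4 and the 4 libraries labelled ErbB4 KO. Ddx3y, a gene of the Y chromosome, lay between 0.257 and 0.495 CPM in WT replicates 1 to 3 and between 76.4 and 80.9 CPM in the other 5 libraries. The female pattern was thus in 3 of the 4 WT and 0 of the 4 ErbB4 KO libraries, so sex and genotype are largely confounded in the comparison of all 8. With Xist as a covariate, 34 of the 39 members had a log2 fold change below 0, and their median was -0.11. In that fit 0 had an unadjusted p under 0.05, beside 0.769% of all genes in the lower direction. Since Xist was high in WT replicates 1 to 3 only, its genotype difference rested mostly on WT replicate 4. Sex and a loss of power therefore cannot be told apart in that count of 0. In a comparison added after the data were seen, WT replicate 4 was set alone against the ErbB4 KO libraries and was assumed to vary like the others. There, 34 of the 39 were below 0 with a median of -0.12. This is nearly the same contrast as the fit with Xist and no separate check of it.

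Within a library the members were shifted by similar amounts, except in WT replicate 1, where the SD of the deviation over the members was 0.193, beside 0.0488 to 0.0838 in the other 7 libraries. The mean deviation of the 39 genes from their own 8-library means was 0.15, -0.10, 0.23 and 0.04 on the log2 scale in WT replicates 1 to 4. In ErbB4 KO replicates 1 to 4 it was -0.15, -0.18, -0.14 and 0.14. WT replicates 1 and 3 and ErbB4 KO replicate 4 were therefore high, WT replicate 2 and the other ErbB4 KO libraries were low, and WT replicate 4 was near the middle. WT replicate 3 was the highest library for 20 members and WT replicate 1 for 16. ErbB4 KO replicate 4 was the highest for the other 3 members, and ErbB4 KO replicate 2 was the lowest library for 21. WT replicate 1, the highest for 16, was also the lowest for 4.

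ErbB4 KO replicate 4 was the highest library of its genotype in 38 members, lay above the WT mean in 30 and exceeded the lowest WT library in all 39. By contrast, ErbB4 KO replicates 1 to 3 were all below the WT mean in 38 members. WT replicate 2 was the lowest WT library in 29 members and lay below ErbB4 KO replicate 4 in 38. With these libraries included, the genotypes overlapped in every member.

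**Figure D1:**
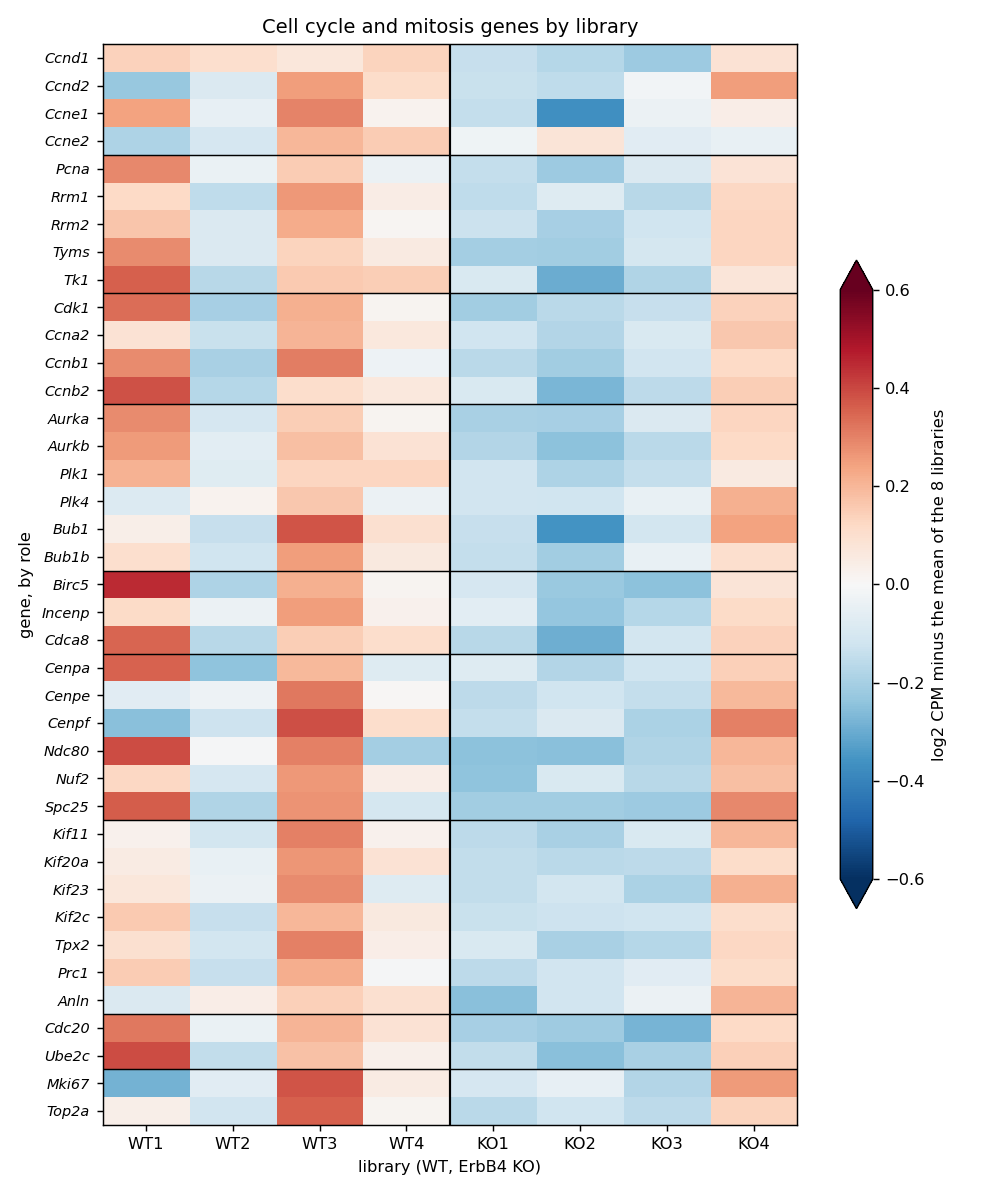
Each cell is a gene's log2 CPM minus its mean over the 8 libraries, with genes in rows grouped by role (black lines) and libraries in columns, WT to the left of the vertical line and ErbB4 KO to the right. WT replicate 3 and ErbB4 KO replicate 4 are red (high) in nearly all rows, with mean deviations of 0.23 and 0.14, and ErbB4 KO replicates 1 to 3 are blue (low).

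Summed over the 39 genes, the WT libraries held 3708, 3343, 4271 and 3708 CPM, a mean of 3758 ± 383 CPM (SD, n = 4). The libraries labelled ErbB4 KO held 3243, 3201, 3308 and 4038 CPM, a mean of 3447 ± 396 CPM (SD, n = 4). The means differed by less than either SD. ErbB4 KO replicate 4 exceeded all WT libraries except WT replicate 3.

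Within genotypes, the median SD of the members' log2 CPM was 0.17 in WT and 0.16 in ErbB4 KO, and the SD was larger in WT for 24 of the 39. Over all genes tested the median SD was 0.16 in WT and 0.09 in ErbB4 KO. In WT the members thus varied about as much as other genes, and in ErbB4 KO they varied more, which is where replicate 4 stood apart for them. Over the 8 libraries, Ndc80 had the widest spread (SD 0.26 on the log2 scale) and Plk4 the narrowest (0.13).

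Per kilobase of the longest annotated transcript, Ccnd2 was the most abundant member at 140.2 ± 20.3 CPM per kb in WT (SD, n = 4). Rrm2 followed at 67.5 ± 6.62, Top2a at 61.5 ± 8.97 and Pcna at 59.99 ± 6.76 CPM per kb. The gaps from Ccnd2 to Rrm2 and from Pcna to Rrm1, next in the order, exceeded both SDs, while those between Rrm2, Top2a and Pcna did not. The lowest levels were 7.02 ± 0.812 CPM per kb for Ccne1, 6.19 ± 0.421 for Anln and 3.34 ± 0.434 for Ccne2. Among the 38 neighbouring pairs of the order, 5 were further apart than both SDs. The order takes each gene's longest transcript as the one expressed, which was not checked, and the SDs hold only the spread between libraries. The order was nearly the same in ErbB4 KO: 22 members kept their rank, and no member moved by more than 2 ranks.

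The promoters of the members are shown because genes of late S phase and mitosis are known to be controlled in common through a short element, the cell cycle genes homology region (CHR), and nearby CCAAT boxes, whereas genes of the G1/S transition are known for E2F sites. RefSeq promoter windows (GRCm38.p6, 250 bases before to 50 after the start) were found for 31 of the 39 members, which gave 32 windows since Prc1 has a pair of them. Ccna2, Ccnd1, Ccnd2, Ccne2, Aurkb, Kif20a, Tpx2 and Incenp had no entry. The letters TTTGAA or TTCGAA (CHR, either strand) were in 65.6% of the 32 windows, beside 19.2% of the 32841 windows of all genes. CCAAT, on either strand, was in 71.9% of the members' windows and 37.4% of all. Both together were in 56.2% of the members' windows (18) and 7.52% of all.

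E2F letters (TTTCGCGC, TTTGGCGC, TTCCCGC or TTTCCCGC, either strand, the last holding the one before it) were in 9.38% of the members' windows (Plk4, Rrm1 and Cdk1) and 5.33% of all. By role, CHR and CCAAT letters occurred together in 4 of the 5 matched kinases and checkpoint genes, in both members of the anaphase-promoting complex group, and in Mki67 and Top2a. They did so in 2 of 3 matched genes among Cdk1 and its cyclins, 3 of 6 centromere and kinetochore genes, 1 of 2 partners of Aurkb and 3 of 5 spindle genes. They occurred together in 0 of the 5 genes of DNA synthesis and not in Ccne1, the 1 matched cyclin of G1/S. Members with CHR letters (20) had a median log2 fold change of -0.17 and those without (11) of -0.19, a gap that was not tested. These matches are letters in a window and describe no binding.

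Below are the 150 bases before the start for 5 members that hold CHR and CCAAT letters in that stretch and for 2 that hold neither, Tk1 and Ccne1, which were among the 6 with the smallest p. All are written 5′ to 3′ on the gene's own strand, and capitals mark the CHR, CCAAT and E2F letters on either strand (TTCAAA and ATTGG are CHR and CCAAT letters read from the other strand).
Cdc20 (chr4:118437344-118437493, minus strand): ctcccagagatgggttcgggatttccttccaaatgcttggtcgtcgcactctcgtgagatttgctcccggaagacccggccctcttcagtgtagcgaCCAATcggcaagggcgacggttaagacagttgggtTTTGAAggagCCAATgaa
Ube2c (chr2:164769779-164769928, plus strand): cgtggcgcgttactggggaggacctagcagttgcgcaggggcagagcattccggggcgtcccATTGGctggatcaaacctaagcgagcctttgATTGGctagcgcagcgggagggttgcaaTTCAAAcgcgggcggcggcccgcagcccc
Cdk1 (chr10:69352913-69353062, minus strand): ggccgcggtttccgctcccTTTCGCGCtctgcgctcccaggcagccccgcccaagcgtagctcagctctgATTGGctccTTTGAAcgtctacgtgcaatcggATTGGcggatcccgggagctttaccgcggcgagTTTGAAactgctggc
Top2a (chr11:99024190-99024339, minus strand): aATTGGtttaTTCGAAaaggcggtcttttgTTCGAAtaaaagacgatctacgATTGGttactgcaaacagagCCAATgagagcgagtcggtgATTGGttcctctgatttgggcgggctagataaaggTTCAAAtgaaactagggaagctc
Mki67 (chr7:135716380-135716529, minus strand): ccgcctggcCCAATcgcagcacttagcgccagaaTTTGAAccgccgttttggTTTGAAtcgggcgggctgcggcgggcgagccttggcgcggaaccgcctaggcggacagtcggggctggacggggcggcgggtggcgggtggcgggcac
Tk1 (chr11:117826015-117826164, minus strand): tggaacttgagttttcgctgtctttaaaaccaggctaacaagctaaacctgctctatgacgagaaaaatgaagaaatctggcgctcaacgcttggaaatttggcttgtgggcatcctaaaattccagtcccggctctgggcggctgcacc
Ccne1 (chr7:38107491-38107640, minus strand): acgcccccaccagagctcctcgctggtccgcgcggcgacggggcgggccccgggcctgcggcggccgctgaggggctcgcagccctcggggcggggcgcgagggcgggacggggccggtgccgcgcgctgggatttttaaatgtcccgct
In Cdc20 the CHR letters begin 18 bases before the start, with CCAAT 53 and 8 bases before it. In Cdk1 they begin 71 and 15 bases before the start, and this window is the only one shown that also holds E2F letters, 131 bases before the start. Top2a holds 3 CHR and 4 CCAAT matches in this stretch, and Mki67 holds its matches further upstream, at 116 and 98 bases for CHR and 141 for CCAAT.

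The D-type and E-type cyclins that carry cells through G1 into S phase held both the smallest and the largest p of the set. Ccnd1, cyclin D1, an activator of Cdk4 and Cdk6 (NCBIM37 chr7:152115836-152125774, minus strand), had 87.4, 85.1, 83.4 and 87.2 CPM in WT replicates 1 to 4. Its values in ErbB4 KO replicates 1 to 4 were 72.3, 70.5, 68.2 and 84.2 CPM. The WT libraries were tightly grouped, and ErbB4 KO replicate 4 alone reached into their range. The means were 85.8 ± 1.89 CPM in WT and 73.8 ± 7.14 CPM in ErbB4 KO (SD, n = 4). By edgeR the log2 fold change was -0.22 (SE 0.07, edgeR adjusted p = 0.810, exact permutation p = 0.0571), where 0.0286 is the smallest permutation p that 4 against 4 libraries allow. Exons of Ccnd1 overlap those of Oraov1 on the opposite strand, and reads of the 2 genes cannot be told apart without strand, with Oraov1 at a log2 fold change of -0.12.

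Ccnd2, cyclin D2 and the most abundant of the 4, had 673, 741, 935 and 848 CPM in WT and 717, 708, 778 and 936 CPM in ErbB4 KO replicates 1 to 4. The ranges of the genotypes overlapped almost fully, with WT replicate 1 the lowest library and ErbB4 KO replicate 4 and WT replicate 3 the highest. Its log2 fold change was -0.03 (SE 0.11, edgeR adjusted p = 0.966). WT replicate 1, the lowest library for Ccnd2, was among the highest for Ccnd1.

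Ccne1, cyclin E1, which with Cdk2 starts DNA replication (NCBIM37 chr7:38883003-38892553, minus strand), had 15.1, 12.4, 15.7 and 12.96 CPM in WT replicates 1 to 4. In ErbB4 KO replicates 1 to 4 it had 11.6, 9.88, 12.5 and 13.1 CPM. WT replicates 1 and 3 stood above the rest, and ErbB4 KO replicates 3 and 4 lay within the WT range. The log2 fold change was -0.26 (SE 0.11, edgeR adjusted p = 0.810, exact permutation p = 0.143). Ccne2, cyclin E2, the least abundant member, had a mean of 10.03 ± 1.31 CPM in WT and 9.76 ± 0.441 CPM in ErbB4 KO (SD, n = 4) and a log2 fold change of -0.04. It shares overlapping exons with Ints8 on the opposite strand, which had a log2 fold change of -0.09.

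**Figure D2:**
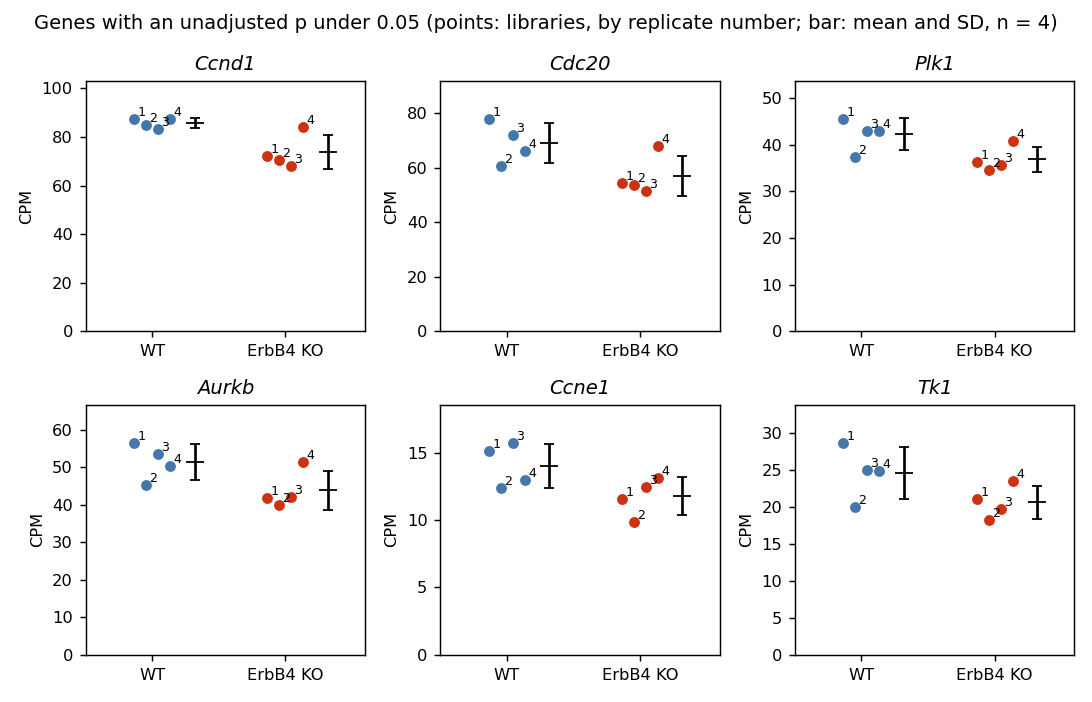
CPM (vertical axes, from 0) of the 6 genes with an unadjusted edgeR p under 0.05, by genotype; each point is a library numbered by replicate, and the bar beside it is the mean and SD of 4 libraries. In every panel ErbB4 KO replicate 4 lies inside the WT range, for example at 84.2 CPM for Ccnd1, above the other 3 ErbB4 KO libraries.

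In S phase, all 5 genes of DNA synthesis had log2 fold changes between -0.25 and -0.14. Tk1, thymidine kinase, which salvages thymidine (NCBIM37 chr11:117676840-117687406, minus strand), had 28.6, 19.9, 24.9 and 24.8 CPM in WT replicates 1 to 4. In the libraries labelled ErbB4 KO it had 20.97, 18.2, 19.7 and 23.5 CPM. WT replicate 1 was the highest library and ErbB4 KO replicate 2 the lowest, and WT replicate 2 lay among the ErbB4 KO libraries. Afmid, which overlaps Tk1 on the opposite strand, had a log2 fold change of -0.07. For Tk1 the log2 fold change was -0.25 (SE 0.11, edgeR adjusted p = 0.810, exact permutation p = 0.0857). Rrm1, the large subunit of ribonucleotide reductase, had 195, 161, 215 and 185 CPM in WT and 161, 169, 159.8 and 195 CPM in ErbB4 KO replicates 1 to 4. Its lowest values came from both genotypes, and its log2 fold change was -0.14 (SE 0.09, edgeR adjusted p = 0.810, exact permutation p = 0.314).

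Rrm2, the small subunit of the same enzyme, had 148 ± 14.5 CPM in WT and 133 ± 13.7 CPM in ErbB4 KO (SD, n = 4). Pcna, the sliding clamp of DNA polymerase, had 91.1 ± 10.3 and 80.1 ± 7.20 CPM (SD, n = 4) for a log2 fold change of -0.19 (SE 0.09, edgeR adjusted p = 0.810, exact permutation p = 0.143). Tyms, thymidylate synthase, had 39.6 ± 4.24 and 34.6 ± 3.93 CPM (SD, n = 4) for a log2 fold change of -0.19 (SE 0.10, edgeR adjusted p = 0.810, exact permutation p = 0.114). For each of the 3 the gap between the means was slightly above the larger SD. Pcna and Tyms have annotated pseudogene copies that could share reads with them, so their counts are uncertain to that extent.

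Cdk1 and the cyclins that activate it for mitosis had log2 fold changes between -0.19 and -0.11, none at an unadjusted p under 0.05. Cdk1, the kinase that drives entry into mitosis, had 91.7, 63.3, 84.3 and 73.4 CPM in WT replicates 1 to 4. In ErbB4 KO replicates 1 to 4 it had 62.9, 65.03, 66.1 and 79.9 CPM. WT replicate 2 was as low as the low ErbB4 KO libraries, and ErbB4 KO replicate 4 exceeded WT replicates 2 and 4. The log2 fold change was -0.19 (SE 0.11, edgeR adjusted p = 0.810, exact permutation p = 0.229).

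Ccna2, cyclin A2, which acts in S phase and early mitosis, had 139, 119, 151 and 137 CPM in WT and 120.4, 116, 123 and 146 CPM in ErbB4 KO replicates 1 to 4. Only WT replicate 3 lay above ErbB4 KO replicate 4. The log2 fold change of Ccna2 was -0.11 (SE 0.09, edgeR adjusted p = 0.810, exact permutation p = 0.343). Exosc9, which overlaps Ccna2 on the opposite strand, had a log2 fold change of -0.05. Ccnb1 and Ccnb2, the B-type cyclins that hold cells in mitosis until they are degraded, had 34.5 ± 5.75 and 43.2 ± 6.90 CPM in WT and 30.2 ± 3.18 and 37.8 ± 4.76 CPM in ErbB4 KO (SD, n = 4), with log2 fold changes of -0.19 (SE 0.12) and -0.19 (SE 0.12). A pseudogene copy is annotated for Ccnb2.

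Among the kinases of mitosis and centriole duplication and the spindle checkpoint, 2 of 6 had an unadjusted p under 0.05. Over all genes, 2.52% were lower at that threshold. Plk1, polo-like kinase 1, which acts at centrosomes, kinetochores and the midzone (NCBIM37 chr7:129302951-129313389, plus strand), had 45.4, 37.4, 43.01 and 42.99 CPM in WT replicates 1 to 4. In the libraries labelled ErbB4 KO it had 36.3, 34.6, 35.6 and 40.8 CPM. WT replicate 2 and ErbB4 KO replicate 4 were the libraries that overlapped the other genotype. The edgeR log2 fold change was -0.20 (SE 0.08, edgeR adjusted p = 0.810, exact permutation p = 0.0571).

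Aurkb, the kinase of the chromosomal passenger complex, which corrects faulty attachments (NCBIM37 chr11:68859149-68865166, plus strand), had 56.5, 45.3, 53.6 and 50.3 CPM in WT and 41.9, 39.9, 42.2 and 51.4 CPM in ErbB4 KO replicates 1 to 4. ErbB4 KO replicate 4 lay above WT replicates 2 and 4, and the other ErbB4 KO libraries lay below all WT libraries. The edgeR log2 fold change was -0.23 (SE 0.09, edgeR adjusted p = 0.810, exact permutation p = 0.0857). Its relative Aurka, which acts at spindle poles, had 39.4 ± 4.50 CPM in WT and 34.9 ± 3.88 CPM in ErbB4 KO (SD, n = 4). The difference for Aurka was -0.18 as a log2 fold change (SE 0.10, edgeR adjusted p = 0.810, exact permutation p = 0.200).

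Plk4, which controls centriole duplication, had 34.8, 37.4, 41.3 and 35.95 CPM in WT and 34.1, 33.95, 35.8 and 42.9 CPM in ErbB4 KO replicates 1 to 4. ErbB4 KO replicate 4 was the highest of all 8 libraries, with WT replicate 3 next, and the log2 fold change was -0.03 (SE 0.09, edgeR adjusted p = 0.951, exact permutation p = 0.686). Its sign turned without WT replicate 3, without ErbB4 KO replicate 1 and without ErbB4 KO replicate 2, among other settings. Bub1b, or BubR1, which inhibits the anaphase-promoting complex until chromosomes are attached, had 92.2, 79.03, 102 and 89.6 CPM in WT and 77.8, 74.4, 83.4 and 92.2 CPM in ErbB4 KO replicates 1 to 4. WT replicate 3 was the highest and ErbB4 KO replicate 2 the lowest library, as in Bub1, the checkpoint kinase at the kinetochore. The log2 fold changes were -0.15 (SE 0.09) for Bub1b and -0.18 (SE 0.13) for Bub1, with edgeR adjusted p = 0.810 for both and exact permutation p = 0.200 and 0.286.

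The 3 partners of Aurkb in the chromosomal passenger complex had log2 fold changes between -0.26 and -0.18. Birc5, survivin, had 42.1, 27.1, 35.7 and 31.2 CPM in WT replicates 1 to 4. In ErbB4 KO replicates 1 to 4 it had 28.7, 26.5, 25.995 and 32.6 CPM. WT replicate 1 stood above the rest, and WT replicate 2 lay among the ErbB4 KO libraries. Birc5 had a log2 fold change of -0.26 (SE 0.12, edgeR adjusted p = 0.810, exact permutation p = 0.200).

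Incenp, the scaffold that holds the complex together, had 86.9, 78.2, 95.3 and 81.7 CPM in WT and 76.7, 68.2, 71.1 and 86.7 CPM in ErbB4 KO replicates 1 to 4. Here ErbB4 KO replicate 4 was level with WT replicate 1 and exceeded by WT replicates 1 and 3 only. Incenp had a log2 fold change of -0.18 (SE 0.09, edgeR adjusted p = 0.810, exact permutation p = 0.114). Cdca8, borealin, had 68.6 ± 9.90 CPM in WT and 58.9 ± 7.61 CPM in ErbB4 KO (SD, n = 4) for a log2 fold change of -0.22 (SE 0.11, edgeR adjusted p = 0.810, exact permutation p = 0.229). Its exons overlap 9930104L06Rik on the opposite strand, which had a log2 fold change of -0.14.

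The 6 genes of the centromere and kinetochore had log2 fold changes between -0.25 and -0.07, all with an unadjusted p above 0.05. Ndc80, the microtubule-binding subunit of the outer kinetochore, had 32.2, 24.5, 30.4 and 21.3 CPM in WT replicates 1 to 4. In the libraries labelled ErbB4 KO it had 20.7, 20.7, 21.7 and 28.3 CPM. WT replicate 4 was as low as the low ErbB4 KO libraries, unlike in most members, and ErbB4 KO replicate 4 stood apart from the other 3. The log2 fold change was -0.25 (SE 0.14, edgeR adjusted p = 0.810, exact permutation p = 0.200). It turned to 0.093 with Xist as a covariate and to 0.094 with WT replicate 4 alone against the ErbB4 KO libraries. In this group the signs of Spc25 and Cenpa turned in the same settings, which for WT rested mostly or wholly on WT replicate 4.

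Nuf2 and Spc25, which belong to the same complex as Ndc80, had log2 fold changes of -0.16 (SE 0.10) and -0.18 (SE 0.14). Spc25 showed the pattern of Ndc80 most plainly, with 42.2, 42.3, 42.1 and 59.8 CPM in ErbB4 KO replicates 1 to 4 and 62.9, 43.1, 58.99 and 45.5 CPM in WT replicates 1 to 4. In Spc25 the first 3 ErbB4 KO libraries were nearly equal, WT replicates 2 and 4 lay just above them, and ErbB4 KO replicate 4 was as high as WT replicate 3.

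Cenpf, a large kinetochore protein of late G2 and mitosis and the most abundant of the 6 by CPM, had 74.9, 81.8, 116 and 95.6 CPM in WT and 80.6, 83.8, 78.01 and 109.9 CPM in ErbB4 KO replicates 1 to 4. WT replicate 3 and ErbB4 KO replicate 4 were high, WT replicate 1 was the lowest library, and the log2 fold change was -0.07 (SE 0.14, edgeR adjusted p = 0.921, exact permutation p = 0.771). Cenpe, the kinesin of the kinetochore, had 60.7 ± 7.83 CPM in WT and 56.1 ± 6.91 CPM in ErbB4 KO (SD, n = 4). Cenpa, the histone H3 variant that marks centromeres, had 48.4 ± 8.95 and 44.3 ± 4.47 CPM (SD, n = 4). Both differences were smaller than the SD of either genotype.

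The 7 genes of spindle motors, spindle assembly, the midzone and cytokinesis had log2 fold changes between -0.18 and -0.09. Kif20a, a kinesin needed at the midzone for cytokinesis, had 50.3, 47.1, 58.4 and 51.5 CPM in WT replicates 1 to 4. In ErbB4 KO replicates 1 to 4 it had 43.8, 43.4, 43.6 and 52.4 CPM. ErbB4 KO replicates 1 to 3 were almost equal and below all WT libraries, while replicate 4 lay above 3 of the 4 WT libraries. Cdc23, whose exons overlap on the opposite strand, had 156 CPM in WT and a log2 fold change of 0.04. For Kif20a the log2 fold change was -0.18 (SE 0.08, edgeR adjusted p = 0.810, exact permutation p = 0.114).

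Tpx2, which activates Aurka and nucleates spindle microtubules, had 139, 120.4, 161 and 134 CPM in WT and 122, 114, 116 and 142 CPM in ErbB4 KO replicates 1 to 4. WT replicate 3 was the highest library and ErbB4 KO replicate 4 the next, and the log2 fold change was -0.17 (SE 0.09, edgeR adjusted p = 0.810, exact permutation p = 0.257). Kif11, the motor that pushes spindle poles apart, and Kif2c, which depolymerises microtubules at kinetochores, had log2 fold changes of -0.12 (SE 0.10) and -0.14 (SE 0.09). Kif23 and Prc1, which build the central spindle, had -0.12 (SE 0.10) and -0.12 (SE 0.08), and Anln, anillin of the contractile ring, had -0.09 (SE 0.10). For Kif11, Kif23 and Anln the gap between the genotype means was smaller than the SD of either genotype.

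Cdc20 and Ube2c, the coactivator and the E2 enzyme of the anaphase-promoting complex, included the largest difference of the set. Cdc20 (NCBIM37 chr4:118105506-118109957, minus strand) had 77.9, 60.7, 71.99 and 66.3 CPM in WT replicates 1 to 4. In ErbB4 KO replicates 1 to 4 it had 54.4, 53.8, 51.5 and 67.9 CPM. Again ErbB4 KO replicates 1 to 3 were below every WT library, and replicate 4 exceeded WT replicates 2 and 4. The means were 69.2 ± 7.39 CPM in WT and 56.9 ± 7.41 CPM in ErbB4 KO (SD, n = 4). By edgeR the log2 fold change was -0.28 (SE 0.10, edgeR adjusted p = 0.810, exact permutation p = 0.0857). Elovl1, whose exons overlap those of Cdc20 on the opposite strand, had a log2 fold change of -0.11 at 7.63 CPM in WT.

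Ube2c had 85.7, 58.9, 73.8 and 66.6 CPM in WT and 59.02, 54.98, 57.01 and 72.2 CPM in ErbB4 KO replicates 1 to 4. WT replicate 1 was the highest library, WT replicate 2 was level with ErbB4 KO replicate 1, and the log2 fold change was -0.23 (SE 0.12, edgeR adjusted p = 0.810, exact permutation p = 0.200). Both promoters of this pair, printed above with Cdk1, Top2a and Mki67, held CHR and CCAAT letters.

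Top2a and Mki67 act on the chromosomes of dividing cells, the first as the enzyme that disentangles DNA and the second as the coat of the mitotic chromosome and a widely used proliferation marker. Top2a had 310.4, 279.9, 389 and 306 CPM in WT and 271, 279, 272 and 333 CPM in ErbB4 KO replicates 1 to 4. WT replicate 3 was high, WT replicate 2 was level with ErbB4 KO replicate 2, and ErbB4 KO replicate 4 lay above 3 WT libraries. Its log2 fold change was -0.16 (SE 0.10, edgeR adjusted p = 0.810, exact permutation p = 0.286). Mki67 had 165, 191, 260.5 and 207 CPM in WT and 187, 193, 178 and 239 CPM in ErbB4 KO replicates 1 to 4. The lowest and the highest value of Mki67 both came from WT, and its log2 fold change was -0.05 (SE 0.13, edgeR adjusted p = 0.942, exact permutation p = 0.83), a difference well within the spread of the WT libraries.

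**Figure D3:**
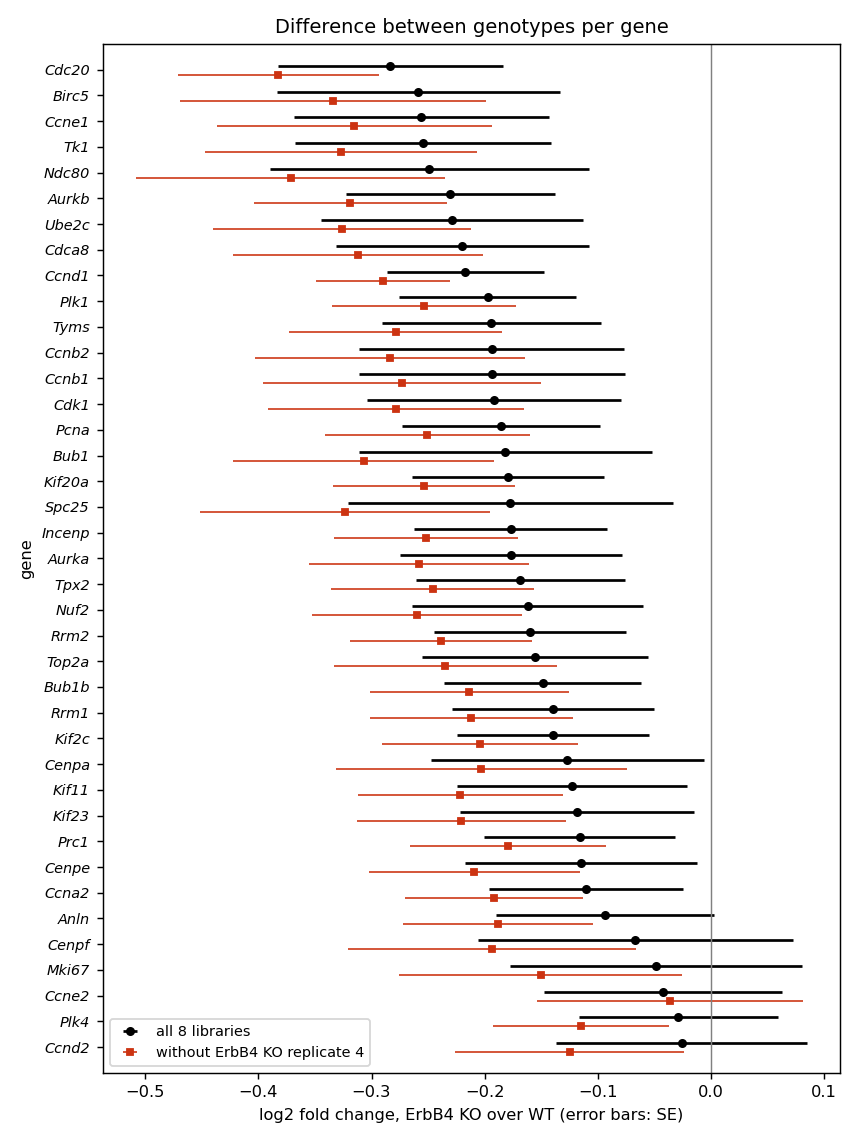
Log2 fold change (ErbB4 KO over WT, horizontal axis) with its SE for the 39 genes, from all 8 libraries (black) and with ErbB4 KO replicate 4 left out (red). All black points lie below 0, from -0.28 for Cdc20 to -0.03 for Ccnd2, and the median moves from -0.18 to -0.25 without that library.

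How many members had a small p turned on single libraries. Without ErbB4 KO replicate 4, 32 of the 39 had an unadjusted p under 0.05 in the lower direction, beside 3.58% of all genes. The 7 others were Ccnd2, Ccne2, Plk4, Cenpa, Cenpf, Prc1 and Mki67. In that fit, 13 members had all values of ErbB4 KO below all values of WT, among them Ccnd1, Pcna, Plk1, Aurkb, Cdc20 and Top2a, beside 4.57% of all genes. No member reached an edgeR adjusted p under 0.05 even then, the smallest being 0.232.

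Without WT replicate 2, 22 members had an unadjusted p under 0.05, beside 4.55% of all genes, and 2 did not overlap between genotypes (beside 4.80%). Leaving out WT replicate 3 left 2 members at an unadjusted p under 0.05, Ccnd1 and Cdc20, beside 3.19% of all genes, and moved the median to -0.11. The same 2 were left without ErbB4 KO replicate 1 or replicate 2 (beside 1.55% and 1.17% of all genes), and Ccne1 joined them without ErbB4 KO replicate 3 (beside 1.52%). Ccnd1 and Cdc20 had an unadjusted p under 0.05 in all 8 of these fits. The number lower in ErbB4 KO stayed between 34 and 39 of 39 throughout.

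**Figure D4:**
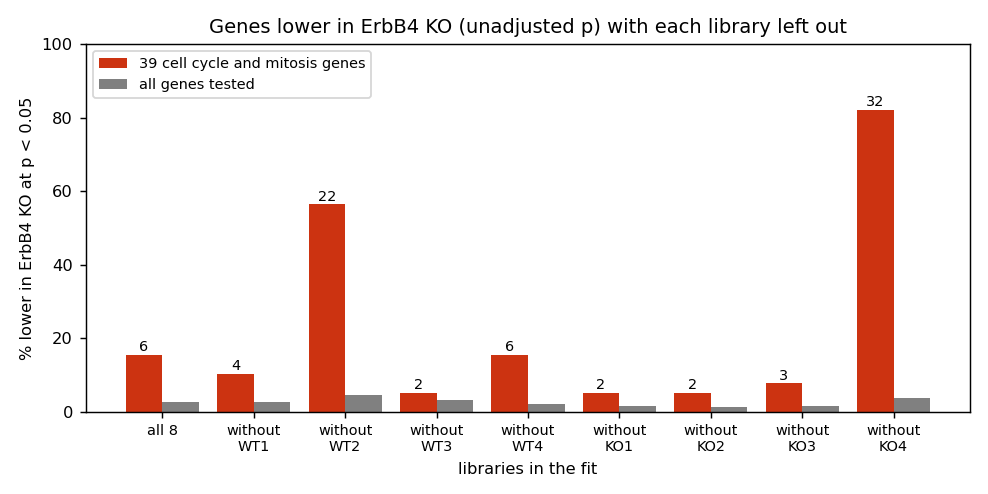
Percent of genes lower in ErbB4 KO at an unadjusted edgeR p under 0.05 (vertical axis) with all 8 libraries and with each library left out (horizontal axis), for the 39 cell cycle and mitosis genes (red, with the number of genes above each bar) and for all genes tested (grey). The count is 6 with all libraries, 32 without ErbB4 KO replicate 4 and 22 without WT replicate 2, and between 2 and 6 without any of the others.

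WT replicate 1 differed from the other libraries in a further way that touched the members. In this library the deviation of a member from its 8-library mean went down as its transcript got longer. For the 13 members with the shortest transcripts (1354 to 2405 nt) the mean deviation was 0.29, for the 13 of middle length (2489 to 3567 nt) it was 0.15, and for the 13 longest (3645 to 11137 nt) it was 0.00. Spearman's rho between deviation and transcript length was -0.75 across the 39 genes and -0.58 across all genes tested in WT replicate 1, as a description across genes of a single library. In WT replicate 3 the same shares of the set deviated by 0.20, 0.23 and 0.26. A trend of the opposite sign was present in ErbB4 KO replicate 2 (rho 0.56 across the 39 genes, 0.22 across all genes). WT replicate 3 had a rho of 0.39 across the 39 genes and 0.20 across all genes. In the remaining libraries rho across the 39 genes lay between 0.02 and 0.29.

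Cenpa, Ccnb2 and Ube2c, with short transcripts, were highest in WT replicate 1, while Rrm2, Ccne1 and Nuf2, also short, were highest in WT replicate 3. Mki67 and Cenpf, with the longest, were lowest in WT replicate 1. The median log2 fold change was -0.19, -0.18 and -0.12 from the shortest to the longest 13 members. After the length trend of each library had been removed, the median over all 39 was -0.16, 39 of 39 were below 0 and 6 had an unadjusted p under 0.05, beside 3.13% of all genes.

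**Figure D5:**
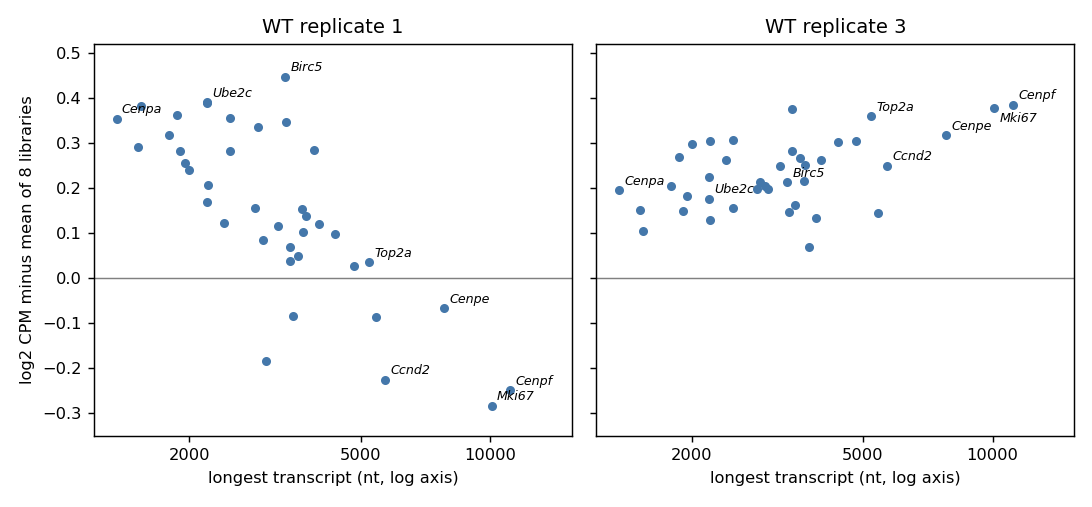
Deviation of each of the 39 genes from its 8-library mean (log2 CPM, vertical axis) against the length of its longest annotated transcript (nt, log axis) in WT replicate 1 (left) and WT replicate 3 (right), each point being a gene. In WT replicate 1 the points descend from short to long transcripts (rho -0.75), and in WT replicate 3 all 39 points lie above 0.

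Other genes of the cell cycle mostly had log2 fold changes below 0 too. Of 41 further mitosis genes tested, 40 had a log2 fold change below 0, 6 were lower at an unadjusted p under 0.05 and 0 passed the adjusted threshold, with a median of -0.13. Over all genes tested, 50.8% were below 0 and 2.52% were lower at an unadjusted p under 0.05, and the lists that follow have the same background. Cenpn, of the inner kinetochore, had 15.7 ± 1.65 CPM in WT and 13.2 ± 1.31 CPM in ErbB4 KO (SD, n = 4) for a log2 fold change of -0.26 (edgeR adjusted p = 0.810, exact permutation p = 0.0857). Cdca3, which helps to trigger mitotic entry, and Ncaph, a condensin subunit, had log2 fold changes of -0.22 and -0.22 (edgeR adjusted p = 0.810 for both, exact permutation p = 0.114 and 0.0857). The exception in sign was Pttg1, securin, at 0.05.

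Of 23 other cyclins, kinases, phosphatases and transcription factors of the cycle, 19 were below 0, 3 at an unadjusted p under 0.05 (beside 2.52% of all genes), with a median of -0.11. These 3 were Ccnf, cyclin F (log2 fold change -0.22, exact permutation p = 0.0857), Cdc25c, a phosphatase that activates Cdk1 (-0.28, p = 0.0571), and E2f6, a repressor of the E2F family (-0.15, p = 0.0857). Foxm1 and Mybl2, transcription factors of the mitotic genes, had log2 fold changes of -0.11 and -0.22 and exact permutation p = 0.371 and 0.143.

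Inhibitors of the cycle and genes of cell cycle exit were mostly below 0 as well. Of the 12 tested, 9 were below 0 and 1 had an unadjusted p under 0.05 (beside 2.52% of all genes), with a median of -0.07, while Cdkn2a and Cdkn2b were too low to test. Gadd45g, a growth arrest gene, had 58.8 ± 10.7 CPM in WT and 49.02 ± 5.10 CPM in ErbB4 KO (SD, n = 4) for a log2 fold change of -0.26 (edgeR adjusted p = 0.810, exact permutation p = 0.171). Cdkn2c, an inhibitor of Cdk4 and Cdk6, had 15.7, 13.3, 13.6 and 13.3 CPM in WT and 10.3, 11.6, 13.2 and 13.1 CPM in ErbB4 KO replicates 1 to 4. Its values did not overlap between genotypes, by a narrow margin, and its log2 fold change was -0.21 (edgeR adjusted p = 0.810, exact permutation p = 0.0286). Cdkn1c, the inhibitor p57, had a log2 fold change of -0.18 (edgeR adjusted p = 0.810, exact permutation p = 0.200).

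Markers of progenitors, the cells that divide in this tissue, were mostly below 0 too. Of 12 radial glia genes, 10 were below 0 and 5 were lower at an unadjusted p under 0.05, beside 2.52% of all genes (Dbi, Pax6, Hes1, Nes and Vim, of which Dbi is a gene the study chose from these samples), with a median of -0.16. Their summed level was between 2174 and 2837 CPM in WT and between 2138 and 2317 CPM in ErbB4 KO. Pax6, the transcription factor of cortical radial glia, had 112, 92.5, 104 and 97.8 CPM in WT and 77.2, 79.3, 85.4 and 95.5 CPM in ErbB4 KO replicates 1 to 4, a log2 fold change of -0.27 (SE 0.08, edgeR adjusted p = 0.810, exact permutation p = 0.0571). As in most cell cycle genes, WT replicate 2 was the lowest WT library for Pax6 and ErbB4 KO replicate 4 the highest of its genotype. Over the 12 radial glia genes, the mean deviation was 0.21, -0.05, 0.07 and 0.06 on the log2 scale in WT replicates 1 to 4. In ErbB4 KO replicates 1 to 4 it was -0.08, -0.14, -0.06 and -0.005. For these genes ErbB4 KO replicate 4 was again the highest of its genotype. Its value of -0.005 lay below the 0.14 of the cell cycle and mitosis set in that library.

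Of 7 intermediate progenitor genes, 6 were below 0 and 2, Neurog1 and Neurog2, had an unadjusted p under 0.05 (beside 2.52% of all genes), with a median of -0.07 and a summed level between 963 and 1106 CPM in WT and between 901 and 1046 CPM in ErbB4 KO. Eomes, or Tbr2, which marks these cells, had 277 ± 19.01 CPM in WT and 253 ± 30.002 CPM in ErbB4 KO (SD, n = 4) for a log2 fold change of -0.13 (edgeR adjusted p = 0.810, exact permutation p = 0.229). Of 13 genes of postmitotic cortical neurons, 4 were below 0 and 9 above, with a median of 0.03. At an unadjusted p under 0.05, 1 was higher and 0 were lower. Their sums lay between 11399 and 11650 CPM in WT and between 11533 and 12286 CPM in ErbB4 KO. Tubb3, the neuronal tubulin, had 2223 ± 187 CPM in WT and 2224 ± 103 CPM in ErbB4 KO (SD, n = 4). The part of the cell makeup of the samples in the members' differences was not tested.

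Among cells that the dissection or the blood could add, ganglionic eminence and interneuron genes summed to between 618 and 809.6 CPM in WT and between 597 and 809.8 CPM in ErbB4 KO, with a median log2 fold change of -0.02 over 11 genes and Dlx2 at 0.01. Of these 11 genes, 7 were below 0 and 1, Sst, was lower at an unadjusted p under 0.05 (log2 fold change -0.23, exact permutation p = 0.143). Meningeal fibroblast genes summed to at most 20.2 CPM, with 1 of the 5 tested below 0 and a median log2 fold change of 0.03. Among them Col1a1 was at 0.832 ± 0.195 CPM in WT and 0.858 ± 0.438 CPM in ErbB4 KO (SD, n = 4). Endothelial genes summed to between 126 and 131 CPM in WT and between 127 and 135 CPM in ErbB4 KO, with 2 of 6 genes below 0, among them Cldn5 at a log2 fold change of -0.04, and a median of 0.02. Microglia genes summed to at most 44.8 CPM, with 1 of 5 below 0 and a median log2 fold change of 0.07. In these last 3 lists 0 genes had an unadjusted p under 0.05.

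Of the erythroid genes, 5 were tested and Hba-a1, Hba-a2 and Hbb-b2 were listed at 0 in every library. Of the 5, 3 were below 0 and 2 above, and 2, Hbb-y and Hba-x, were lower at an unadjusted p under 0.05 (beside 2.52% of all genes). The 2 above 0 were Beta-s at 0.11 and Alas2 at 0.21, as log2 fold changes. Hbb-y, an embryonic globin, had 34.6, 31.6, 26.3 and 13.9 CPM in WT and 3.69, 4.05, 6.74 and 18.3 CPM in ErbB4 KO replicates 1 to 4. ErbB4 KO replicate 4 again lay above the other libraries of its genotype and above WT replicate 4. The log2 fold change of Hbb-y was -1.72 (SE 0.45, edgeR adjusted p = 0.810, exact permutation p = 0.0571), that of Hba-x was -1.23 (SE 0.31, edgeR adjusted p = 0.740, exact permutation p = 0.0571), and the part of blood cells in the members' differences was not tested.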

How the data were processed

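RNA-seq libraries of polyA RNA from E15.5 dorsal cortex (4 WT, 4 ErbB4 KO) were unstranded and single-end. The authors used HISAT for mapping (genome build mm9) and HTSeq for counts per gene (submitters' processing notes and the study's methods, versions not given in the sources used here). The deposited counts are whole numbers per gene symbol with no normalization. The deposited table of the authors' own DESeq2 comparison (fold changes, standard errors, p-values) was not used. Genotypes came from the labels.

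Counts were filtered with filterByExpr (minimum count 10, minimum total 15), normalized by TMM and tested with edgeR 4.0.16 (glmQLFit, glmQLFTest) in R 4.3.3, with Benjamini-Hochberg adjustment over all 14696 genes tested and a threshold of 0.05. CPM values are TMM-normalized, and log2 CPM has a prior count of 2. Permutation tests of single values were exact and two-sided, over 70 assignments of the 8 libraries. The biological coefficient of variation was 10.7%, and counting error is part of the fitted model.

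The members and lists were chosen with earlier results of these data known. Values in every library are given for members with an unadjusted p under 0.05, the smallest p and highest mean CPM of each role, and the widest and narrowest spread. They are also given for Mki67, which met none of these criteria. Spc25 and the transcription factors Foxm1 and Mybl2 were added after their values were seen. From each further list up to 3 genes with the smallest p are named, beside fixed cell type markers. The alternatives left out each library in turn, added a replicate block or an Xist covariate, tested all genes unfiltered or those averaging 50 counts or more, scaled libraries by upper quartiles or relative log expression, or used DESeq2 1.42.0 or limma-voom (limma 3.58.1). The fits were tested on simulated data. GENCODE models on NCBIM37 (mm9) gave positions and transcript lengths, and RefSeq (GRCm38.p6) gave promoters. Plots used matplotlib 3.10.9 under Python 3.11.15.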

Additional observations from a re-analysis of the deposited data

Results flagged for a closer look

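In 7 cases a single library lay far from the other 3 of its genotype. Chance marks about 1 group in 20 in this way, and 78 groups (39 genes in 2 genotypes) were looked at. In 6 of the cases the library was ErbB4 KO replicate 4, always on the high side: Top2a at 333 CPM (the other 3 between 271 and 279), Cenpe at 66.4 CPM (between 51.97 and 53.5), Kif20a at 52.4 CPM (between 43.4 and 43.8), Kif2c at 50.3 CPM (between 42.6 and 43.1), Ndc80 at 28.3 CPM (between 20.7 and 21.7) and Spc25 at 59.8 CPM (between 42.1 and 42.3). The remaining case was Cenpe in WT replicate 3, at 72.3 CPM with the other WT libraries between 55.4 and 58.2. The genes vary together between libraries, so these cases are not independent of each other.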

How the results depend on the processing

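No member passed an adjusted p of 0.05 in any setting. The number of members at an unadjusted p under 0.05 was 6 with all libraries and 6 or 7 with other tools, normalizations and filters. The share of all genes lower was 2.38% with relative log expression and 2.08% with upper quartiles. Unfiltered it was 2.26%, and 2.45% among genes averaging 50 counts or more. The replicate number as a block gave 10 members (beside 3.01% of all genes). Xist as a covariate gave 0 (beside 0.769%), in a fit whose WT side rested mostly on WT replicate 4. With WT replicate 4 alone against the ErbB4 KO libraries, assumed to vary like the others, the median log2 fold change was -0.12. The number of members lay between 2 and 32 with each library left out: 22 without WT replicate 2 and 32 without ErbB4 KO replicate 4. It was 2 without WT replicate 3, ErbB4 KO replicate 1 or ErbB4 KO replicate 2, and 3 without ErbB4 KO replicate 3. Without WT replicate 1 it was 4 (beside 2.71% of all genes) and without WT replicate 4 it was 6 (beside 2.15%). Over these fits the share of all genes lower lay between 1.17% and 4.55%. The labels do not say whether the replicate numbers pair the samples. Libraries of the same number deviated together with r = 0.08, 0.13, 0.05 and 0.02 across all genes. ErbB4 KO replicates 1 to 3 each went best with the WT library of their number. ErbB4 KO replicate 4 went best with WT replicate 3 (0.15). These r were all small, so they leave the pairing unsettled. The median log2 fold change was -0.11 with Xist as a covariate and between -0.25 and -0.11 with each library left out, -0.25 without ErbB4 KO replicate 4. Members with genotypes that did not overlap numbered between 0 and 13 with each library left out, beside between 2.06% and 4.80% of all genes. The alternatives with the length trend removed and with WT replicate 4 alone were chosen after seeing the data. Every member passed the filter in all settings, and the effect of depth was not tested.

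The following signs turned. With Xist as a covariate the log2 fold changes of Plk4, Cenpa, Kif23, Ndc80 and Spc25 were 0.045, 0.011, 0.041, 0.093 and 0.027. With WT replicate 4 alone they were 0.026, 0.026, 0.025, 0.094 and 0.029. On the WT side both fits rested mostly or wholly on WT replicate 4. With each library left out, Mki67 lay between -0.15 and 0.085, Ccnd2 between -0.13 and 0.058, Ccne2 between -0.11 and 0.021, Plk4 between -0.11 and 0.023 and Cenpf between -0.19 and 0.065. The highest value of each came without WT replicate 3, and the cause of these shifts was not tested.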
